A study of Mus musculus with 6 samples.

Results

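The genes described here are 38 genes of DNA replication and S phase, chosen by name: the clusters of the array whose gene symbol is one of a list of replication factors. All 38 were found, each on a single transcript cluster, out of 21824 gene features tested. The clusters lie on 15 chromosomes (mouse build mm10), and the deposited table calls all 38 expressed in both groups. For 37 of them the cluster names no other gene. The cluster of Mcm7 also names the microRNAs Mir93 and Mir25, which lie within that gene.

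Expression was measured in tumours grown under the skin of mice from cells of the line KLN205, a lung squamous carcinoma of the mouse. The 3 anti-PD-1 tumours (replicates 1, 2 and 3) came from mice that received antibody to PD-1, a checkpoint receptor that restrains T cells, and the 3 control tumours (replicates 2, 3 and 4) are labelled as not given that antibody. The treatment protocol names an IgG2a isotype antibody, injected into the peritoneum like the anti-PD-1 antibody, 250 µg every 3 days. All 6 tumours started from 1000000 cells injected with Matrigel, a basement membrane gel, into the left flank. The series text dates collection at 7 days after treatment and speaks of surviving cells, while the labels name tumour tissue, so each array was read as a whole tumour piece with its host cells. The sources used here give no strain, age, sex or antibody clone. The labels do not say that each tumour came from its own animal, so p-values measure the spread between these samples only.

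Replication starts in separate steps. In G1 the origin recognition complex with Cdc6 and Cdt1 loads the ring of Mcm2 to Mcm7 onto origins, which is called licensing, and geminin (Gmnn) holds Cdt1 in check once S phase has begun. In S phase Cdc45 and the GINS complex turn that ring into the active helicase, polymerases with the sliding clamp PCNA copy the strands, and enzymes of nucleotide synthesis supply the precursors. Many of these genes are transcribed at the G1/S boundary under E2F factors, which is why they are often read together as a sign of cycling cells.

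Of the 38 genes, 31 matched a window in the RefSeq promoter table (GRCm38.p6), which runs from 250 bases before to 50 bases after each gene's start. The windows were searched on both strands for the E2F motif in its 4 spellings TTTGGCGC, TTTGCCGC, TTTCGCGC and TTTCCCGC. They held a match in 13 of the 31 genes (41.9%), against 2.60% of all 27025 genes with a window. The CCAAT box, searched on both strands as CCAAT, was in 61.3% of the members and 41.1% of all genes. The cell cycle homology region, spelled TTTGAA or TTCGAA, was in 19.4% and 21.7%. A match describes the letters and does not show that a factor binds there, and the lack of one does not show that none does. The 3 windows below show how the match lies. Among members with an E2F match, Cdc6 and Cdt1 had the largest expression differences. Pold1 had the smallest absolute difference of all members. Capitals mark the E2F match.
Cdc6, chr11:98907901-98908200, plus strand: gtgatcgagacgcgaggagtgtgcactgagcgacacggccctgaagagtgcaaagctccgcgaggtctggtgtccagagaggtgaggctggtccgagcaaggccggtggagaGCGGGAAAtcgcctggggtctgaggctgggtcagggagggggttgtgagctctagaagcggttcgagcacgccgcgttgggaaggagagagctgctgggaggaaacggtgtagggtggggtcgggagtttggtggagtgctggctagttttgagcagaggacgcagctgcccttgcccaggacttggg
Cdt1, chr8:122567765-122568064, plus strand: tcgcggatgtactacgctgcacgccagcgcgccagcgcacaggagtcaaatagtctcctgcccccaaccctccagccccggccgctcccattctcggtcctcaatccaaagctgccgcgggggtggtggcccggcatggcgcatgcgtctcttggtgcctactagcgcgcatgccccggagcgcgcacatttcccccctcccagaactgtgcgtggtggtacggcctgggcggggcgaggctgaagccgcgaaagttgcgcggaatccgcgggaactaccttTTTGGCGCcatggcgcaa
Pold1, chr7:44548766-44549065, minus strand: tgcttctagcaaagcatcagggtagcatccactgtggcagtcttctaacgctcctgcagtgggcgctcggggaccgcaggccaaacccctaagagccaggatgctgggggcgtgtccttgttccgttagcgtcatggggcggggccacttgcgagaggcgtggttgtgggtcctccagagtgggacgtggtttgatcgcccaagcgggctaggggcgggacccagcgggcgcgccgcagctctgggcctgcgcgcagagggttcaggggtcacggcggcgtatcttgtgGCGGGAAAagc
Counted from the gene's start, the match begins at base -138 in Cdc6, at base 33 in Cdt1 and at base 40 in Pold1. The 13 genes with a match had a median log2 difference of 0.58 and the 18 without one a median of 0.73, with ranges of 0.15 to 1.10 and 0.20 to 1.81. These ranges overlap, and the difference was not tested. The 7 members with no window, Ccne2, Gins1, Gins2, Gmnn, Mcm4, Pole and Rfc2, are in neither group.

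Control replicate 3 was unlike the remaining arrays. Across genes it correlated with the rest at 0.908 to 0.936, and correlations among the remaining 5 arrays were 0.973 to 0.987. It was the lowest array for 10 of 12 squamous markers (not for Itga6 and Cdh1) and the highest for all 8 fat markers, with Krt5, a keratin of basal squamous cells, at 11.00 against 13.14 to 18.15 elsewhere. The differences of the members are therefore also given without it, in the text or in a figure. For other genes and lists this is done only in places. A value printed without that comparison may still rest on control replicate 3. The array medians lay between 7.04 and 7.13, and 3 arrays per group limit the precision of every comparison.

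The series text is about tumour cells that survive PD-1 blockade. The question here was which replication genes differ between whole tumour pieces, host cells included, with and without anti-PD-1. Except for Ccne2, the replication genes had higher means under anti-PD-1, but none passed the adjusted threshold. The mean was higher for 37 of 38 members (97.4%), where 51.6% of all features were higher. The median log2 difference over the members was 0.73, or 1.66-fold, anti-PD-1 minus control, against 0.02 over all features. The authors' deposited table runs in the opposite direction, control divided by anti-PD-1. Its group averages also differ from the means of the signals used here, so its fold changes are not the same. For Tk1 it gives 8.84 in anti-PD-1 and 8.97 in control tumours, where the means are 8.73 and 8.13. Differences ran from -0.19 for Ccne2 to 1.81 for Rrm2, and 8 members were at least 2-fold higher, with 4.64% of all features past that fold. In bulk tumour RNA, a larger share of cycling cells under anti-PD-1 and more of these transcripts per cell cannot be told apart.

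By limma with Benjamini-Hochberg adjustment over all features, 0 of 38 members passed the threshold of 0.05, and their adjusted p lay between 0.504 and 0.786. Over the whole array 0.00458% of features passed. At an uncorrected p under 0.05, 9 members (23.7%) were higher and 0 lower, against 5.20% of all features higher and 4.54% lower. The 9 were Gmnn, Cdt1, Prim1, E2f1, Cdc6, Mcm5, Gins2, Gins1 and Orc6, of which 5 belong to origin licensing. The 3 anti-PD-1 values all lay above the 3 control values in 10 members (26.3%), where 8.87% of all features did so, and 0 members were separated the other way (7.74% of all features). These counts moved with single arrays. The uncorrected count was 3 without control replicate 3 (7.89% of members, against 4.10% of all features), and it was also 3 when control replicate 4 (4.52% of all features), or replicate 1 (2.74%) or replicate 3 (2.80%) of anti-PD-1, was left out. Without control replicate 2 it was 29 (76.3% of members, against 8.30% of all features). The authors' deposited table gives 9 members a p under 0.05 (9.60% of all clusters) and 0 an FDR under 0.05 (0.00450% of all clusters).

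**Figure D1:**
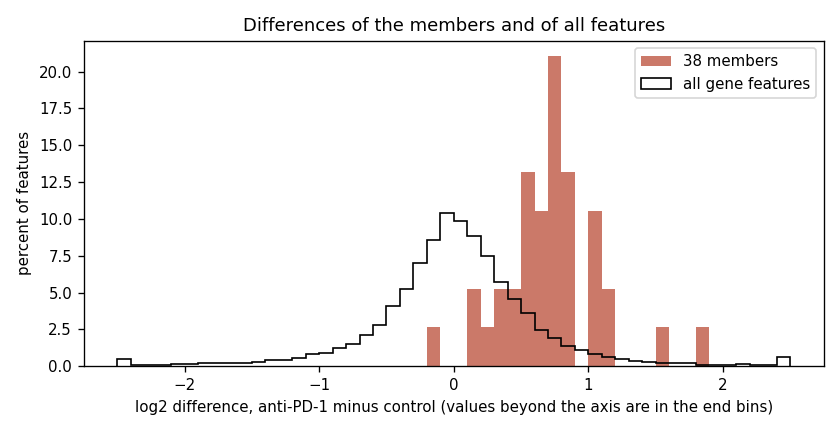
Histogram of the log2 difference in signal, anti-PD-1 minus control, as percent of features per bin of 0.1, with values past the ends counted in the outermost bins. The 38 replication genes (filled) centre on a median of 0.73 and all gene features (line) on 0.02, and 1 member lies below 0.

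The array-by-array pattern was the same for most members: the 3 anti-PD-1 tumours lay close together, control replicate 2 lay among them, and control replicates 3 and 4 lay below. Control replicate 3 was the lowest of all 6 arrays for 30 of 38 members, while 28.1% of all features were lowest there. Control replicate 4 was the lowest for 6 members. The median gap to the mean of the anti-PD-1 tumours was -0.12 in control replicate 2, -1.39 in control replicate 3 and -0.75 in control replicate 4. All 3 anti-PD-1 tumours lay above control replicate 3 in 36 members, above control replicate 4 in 34 and above control replicate 2 in 10. For 5 members control replicate 2 had the highest value of all arrays. The spread between control tumours was wider than between anti-PD-1 tumours for 36 members, with a median SD of 0.21 in anti-PD-1 and 0.65 in control tumours, against 0.27 and 0.36 over all features. Over the 6 arrays the median correlation between pairs of members was 0.83 (703 pairs). The pairs share the same 6 arrays and the position of control replicate 3, so this is a description only.

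**Figure D2:**
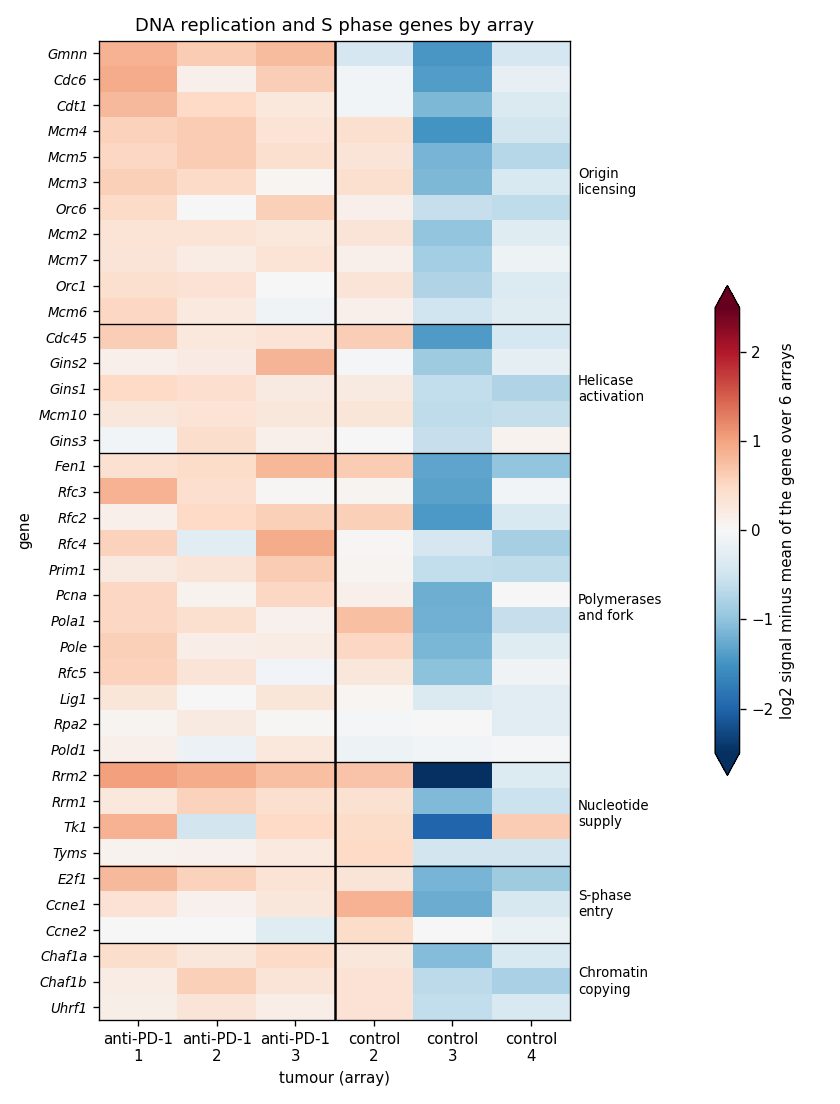
Heat map of the log2 signal of each gene minus its mean over the 6 arrays, with anti-PD-1 tumours left of the line and control tumours right of it, and genes in rows by role. Control replicate 3 is the lowest array in 30 of 38 rows, and control replicate 2 resembles the anti-PD-1 tumours except in rows such as Gmnn, Cdc6 and Cdt1.

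Among the factors of origin licensing, all 11 had higher means (median log2 difference 0.74), and Gmnn, which encodes geminin, had the smallest p of all members. Gmnn (chromosome 13, 24751845 to 24761937) read 9.12, 8.88 and 9.03 in anti-PD-1 tumours and 7.83, 6.80 and 7.82 in control tumours (log2 signal). The groups were separated by 1.05 log2 units, the lowest anti-PD-1 value against the highest control value, the widest gap of any member. The means were 9.01 ± 0.12 and 7.48 ± 0.59 (SD, n = 3 each). The log2 difference was 1.53 ± 0.32 (SE), or 2.88-fold, with an uncorrected limma p of 0.00224 and an adjusted p of 0.504. Without control replicate 3 the difference was 1.19 ± 0.22 (SE), with an adjusted p of 0.377 by limma (0.0229% of all features passed the adjusted threshold there). Gmnn also departed from the common pattern in control replicate 2, where its gap to the anti-PD-1 mean was -1.18, with -0.12 for the median member. The gap of Gmnn in control replicate 4 was -1.19.

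Cdt1, the loading factor that geminin inhibits, and Cdc6, its partner at the origin, showed the next largest gaps of control replicate 2 below the anti-PD-1 mean, at -0.59 and -0.62. Cdt1 (chromosome 8, 122568015 to 122573130) read 10.31, 9.98 and 9.75 in anti-PD-1 tumours and 9.42, 8.36 and 9.12 in control tumours. Its groups did not overlap, and the log2 difference was 1.05 ± 0.33 (SE), with an adjusted p of 0.504. Cdc6 (chromosome 11, 98907801 to 98923942) read 9.08, 8.28 and 8.77 in anti-PD-1 tumours and 8.09, 6.77 and 7.96 in control tumours. Its lowest anti-PD-1 value was 0.19 above the highest control value, and the difference was 1.10 ± 0.41 (SE), with an adjusted p of 0.504. Without control replicate 3 the differences were 0.74 for Cdt1 and 0.69 for Cdc6, and Gmnn, Cdt1 and Cdc6 were the 3 members at an uncorrected p under 0.05 there.

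The origin recognition complex gave smaller differences. Orc6, its smallest subunit, read 9.03, 8.57 and 9.15 in anti-PD-1 tumours and 8.68, 7.98 and 7.93 in control tumours. The groups overlapped through control replicate 2, and the difference was 0.72 ± 0.29 (SE). Orc1, the subunit that comes and goes with the cell cycle, was higher by 0.51 ± 0.32. Without control replicate 3 the differences were 0.61 for Orc6 and 0.27 for Orc1.

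The 6 subunits of the Mcm2 to Mcm7 ring were all higher, by a median of 0.69 on the log2 scale. Mcm5 read 10.16, 10.28 and 10.04 in anti-PD-1 tumours and 9.97, 8.49 and 8.93 in control tumours, without overlap, and the difference was 1.03 ± 0.38 (SE). Mcm4 read 11.99, 12.05 and 11.74 in anti-PD-1 tumours and 11.81, 9.91 and 10.94 in control tumours, and its difference was 1.04 ± 0.46. In both genes control replicate 2 lay next to the anti-PD-1 tumours and control replicate 3 far below. Mcm3 and Mcm2 were higher by 0.74 and 0.64, Mcm7 by 0.58 without overlap, and Mcm6 by 0.45. Without control replicate 3 the differences were 0.71 for Mcm5, 0.55 for Mcm4, 0.36 for Mcm3, 0.31 for Mcm6, 0.30 for Mcm2 and 0.30 for Mcm7. The ring subunits Mcm2 to Mcm5 tracked the other members closely over the 6 arrays, with correlations of 0.97 to 0.99 with the median of the other members.

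**Figure D3:**
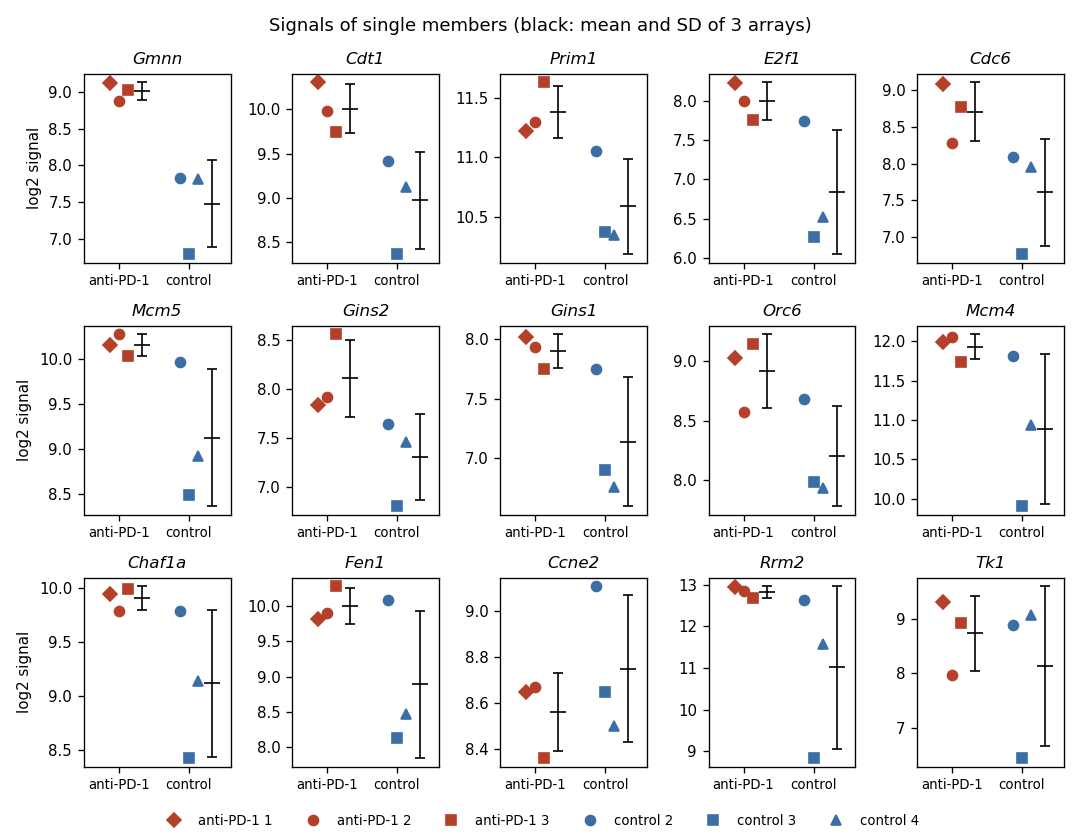
Log2 signals of 15 genes, 1 point per tumour with anti-PD-1 left and control right, symbols by replicate number and black bars for the mean and SD of 3 arrays, each panel with its own axis. Gmnn shows the widest gap between groups, control replicate 2 lies next to the anti-PD-1 tumours in panels such as Mcm4 and Fen1, and Tk1 and Ccne2 overlap.

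All 5 genes that activate the helicase had higher means (median 0.76). Gins1 read 8.02, 7.93 and 7.75 in anti-PD-1 tumours and 7.75, 6.90 and 6.76 in control tumours, so that its groups met at 7.75, with a difference of 0.76 ± 0.30 (SE). Gins2 read 7.84, 7.92 and 8.56 in anti-PD-1 tumours and 7.65, 6.81 and 7.46 in control tumours, without overlap, with a difference of 0.80 ± 0.32. Both encode subunits of the GINS complex, and Gins3, of the same complex, was higher by 0.33 ± 0.26. Cdc45, which joins GINS on the ring, was higher by 0.83 ± 0.49, and Mcm10, which acts in origin firing, by 0.61 ± 0.30. For Cdc45 control replicate 2 equalled the highest anti-PD-1 tumour at 9.83, and control replicate 3 read 7.79. Leaving out control replicate 3 gave 0.65 for Gins1, 0.55 for Gins2, 0.45 for Mcm10, 0.32 for Cdc45 and 0.12 for Gins3.

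At the fork all 12 members were higher, with a median of 0.71 and a range of 0.15 to 1.11, and Prim1 had the smallest p. Prim1, the catalytic subunit of primase, read 11.22, 11.30 and 11.63 in anti-PD-1 tumours and 11.05, 10.37 and 10.35 in control tumours. Its groups did not overlap, and the difference was 0.79 ± 0.27 (SE), with an adjusted p of 0.504. Fen1, the nuclease that trims the flaps of Okazaki fragments, read 9.82, 9.90 and 10.28 in anti-PD-1 tumours and 10.08, 8.13 and 8.47 in control tumours. Its difference was 1.11 ± 0.51, with control replicate 2 inside the anti-PD-1 range. Lig1, the ligase that seals those fragments, was higher by 0.40 ± 0.22. With control replicate 3 left out, Fen1 was at 0.72, Prim1 at 0.68 and Lig1 at 0.32.

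The polymerase genes themselves gave differences of 0.15 to 0.68. Pola1, the polymerase that extends the primer, was higher by 0.68 ± 0.48, and Pole, the leading strand polymerase, by 0.63 ± 0.42, and control replicate 2 lay above all 3 anti-PD-1 tumours in Pola1 and above 2 of them in Pole. With control replicate 3 left out they were at 0.26 and 0.21. Pold1, the catalytic subunit of the lagging strand polymerase, read 7.25, 6.97 and 7.38 in anti-PD-1 tumours and 6.99, 7.06 and 7.09 in control tumours. These values overlapped, the difference was 0.15 ± 0.20, and control replicate 3 did not stand apart, with a gap of -0.14 to the anti-PD-1 mean. Rpa2, a subunit of the complex that coats single-stranded DNA, had a difference of 0.20 ± 0.19 and a gap of -0.10 for control replicate 3, with no overlap between the groups by a margin of 0.02.

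All 5 genes of the clamp and its loader had higher means. Pcna, which encodes the clamp, was higher by 0.74 ± 0.39 (SE). The 4 loader genes Rfc3, Rfc2, Rfc4 and Rfc5 were higher by 0.88, 0.82, 0.81 and 0.55. Rfc4 kept a difference of 0.80 without control replicate 3, whereas Rfc2 was then at 0.30, Rfc3 at 0.43, Rfc5 at 0.17 and Pcna at 0.31.

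The genes of nucleotide supply held the largest difference and the widest spread. Rrm2, the regulated subunit of ribonucleotide reductase, read 12.95, 12.84 and 12.67 in anti-PD-1 tumours and 12.62, 8.84 and 11.58 in control tumours. Its groups did not overlap, but control replicate 2 was 0.05 below the lowest anti-PD-1 tumour. The difference of 1.81 ± 0.88 (SE) had an adjusted p of 0.536 and was 0.72 ± 0.34 without control replicate 3. Rrm1, the large subunit of the same enzyme, was higher by 0.83 ± 0.39, and Tyms, thymidylate synthase, by 0.28 ± 0.31, and without that array they were at 0.49 and 0.12.

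Tk1, the thymidine kinase of the salvage route, read 9.30, 7.96 and 8.92 in anti-PD-1 tumours and 8.88, 6.44 and 9.07 in control tumours. Its groups overlapped widely, with control replicate 4 above 2 of the 3 anti-PD-1 tumours. The difference was 0.60 ± 0.74 (SE), and without control replicate 3 it was -0.25 ± 0.40, the single member whose direction turned on leaving out an array.

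Of the genes that drive entry into S phase, E2f1 had the largest difference, and the cyclin E genes overlapped between the groups. E2f1, the activating transcription factor, read 8.23, 8.0 and 7.76 in anti-PD-1 tumours and 7.74, 6.26 and 6.52 in control tumours. Its groups were separated by 0.02, and the difference was 1.16 ± 0.41 (SE), or 0.87 without control replicate 3. Ccne1 was highest in control replicate 2, at 9.96, and its difference was 0.51 ± 0.50, or 0.02 without control replicate 3. Ccne2 (chromosome 4, 11191351 to 11204779) read 8.65, 8.67 and 8.36 in anti-PD-1 tumours and 9.11, 8.65 and 8.50 in control tumours. These overlapped, and its difference of -0.19 ± 0.24 was the sole negative one. Ccne2, Pold1 and Rpa2 were the 3 members whose correlation with the median of the other members was below 0.5, at 0.14, 0.27 and 0.40.

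The genes that copy chromatin with the DNA were all higher, 3 of 3. Chaf1a, the large subunit of chromatin assembly factor 1, read 9.95, 9.79 and 9.99 in anti-PD-1 tumours and 9.79, 8.43 and 9.14 in control tumours. The groups met at 9.79, and the difference was 0.79 ± 0.35 (SE). Chaf1b, its middle subunit, was higher by 0.73 ± 0.35, and Uhrf1, which brings the maintenance methylase to newly copied DNA, by 0.43 ± 0.29. In the absence of control replicate 3 the differences were 0.59 for Chaf1b, 0.44 for Chaf1a and 0.23 for Uhrf1.

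**Figure D4:**
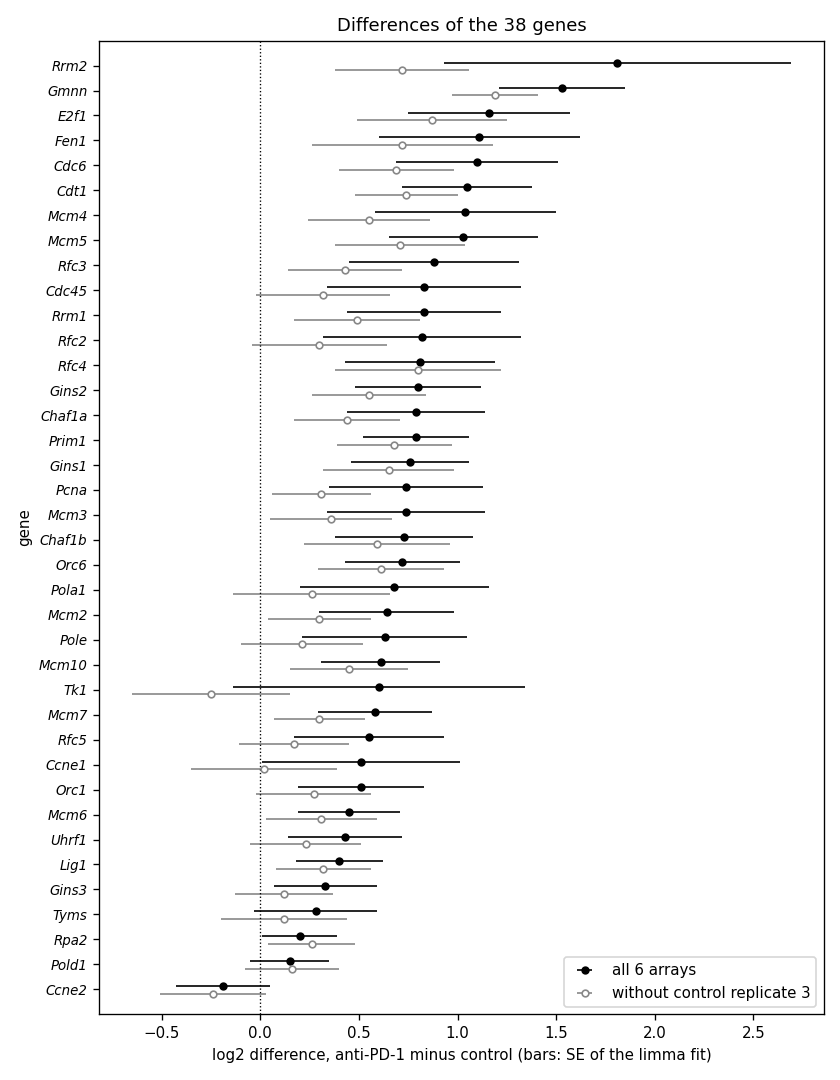
Log2 difference of each of the 38 genes, anti-PD-1 minus control, with the SE of the limma fit, from all 6 arrays (filled) and without control replicate 3 (open). Without that array the median is 0.34, Gmnn is at 1.19 and Tk1 at -0.25.

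Without control replicate 3 the members were still higher in 36 of 38 cases, against 52.1% of all features, with a median of 0.34. Tk1 and Ccne2 were the 2 below 0. Gmnn was then the single member at least 2-fold higher (2.31% of all features were). The groups did not overlap in 10 members (26.3%), against 13.0% of all features. Without control replicate 2 the median was 1.04 and 34 members did not overlap (89.5%), against 18.7% of all features.

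Other genes of replication were compared in 6 lists of 80 genes (licensing, firing and checkpoint, fork and polymerases, nucleotide supply, chromatin copying, and the E2F and Rb families). Of these 64 were higher, where 51.6% of all features were, and their median log2 difference was 0.37, beside 0.02 over all features. At an uncorrected p under 0.05, 11 were higher and 1 lower, against 5.20% and 4.54% of all features. None passed the adjusted threshold. Leaving out control replicate 2 gave 29 in place of 12, with 8.30% of all features higher at that threshold. Leaving out control replicate 3 gave 8 (4.10%) with a median of 0.27. Leaving out replicate 1 of anti-PD-1 gave 6 (2.74%), and leaving out replicate 3 of anti-PD-1 gave 5 (2.80%). These counts, like the 12 over all arrays, take genes in either direction, while the percentages are of features that were higher only. The measures are unlike, so no excess can be read from these counts. Nasp, a histone chaperone, had the smallest p of them. It read 11.54, 11.62 and 11.79 in anti-PD-1 tumours and 10.87, 10.30 and 10.49 in control tumours, and its difference was 1.10 ± 0.23 (SE), with an adjusted p of 0.504.

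In Orc2, Cdk2 and Pold2 control replicate 2 lay among the other control tumours rather than next to the anti-PD-1 tumours. Orc2, a core origin subunit, read 9.83, 10.06 and 9.97 in anti-PD-1 tumours and 9.39, 9.35 and 9.33 in control tumours. All 3 control tumours lay together, and the difference was 0.60 ± 0.19 (SE). Cdk2, the kinase that cyclin E activates, was higher by 0.60 ± 0.22 without overlap, Pold2, a polymerase delta subunit, by 0.60 ± 0.20, and Atad5, which unloads the clamp, by 1.11 ± 0.32. In nucleotide supply, Ctps (CTP synthase) was higher by 1.22 ± 0.36 and Dut (dUTPase) by 1.14 ± 0.39, both without overlap. Without control replicate 3 these differences were 0.89 for Ctps and 0.81 for Dut.

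In the E2F and Rb families the median difference was 0.18, and 9 of 15 genes were higher, against 51.6% of all features. The pocket protein gene Rbl2, a repressor in resting cells, was the 1 gene below an uncorrected p of 0.05. It read 10.75, 10.71 and 10.67 in anti-PD-1 tumours and 11.00, 11.48 and 11.59 in control tumours, and the difference was -0.65 ± 0.23 (SE; adjusted p 0.504). Over 14 genes upstream of S phase (D cyclins, their kinases, inhibitors and Myc genes), the median difference was 0.47. Of these 8 were higher, where 51.6% of all features were. Cdkn2b, an inhibitor of the cyclin D kinases, was higher by 0.86 ± 0.25 without overlap, or 0.72 without control replicate 3. Ccnd2 was lower without overlap, at -0.46 ± 0.20. The largest differences, in Cdkn2a, Cdkn1a and Cdk6, were 2.38, 2.36 and 1.51. Without control replicate 3 they were 0.86, 0.58 and -0.02.

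Mitosis genes, the next stage of the same cycle, gave larger differences. All 20 were higher, with a median of 1.39 beside 0.73 for the replication genes, and 7 had an uncorrected p under 0.05, where 5.20% of all features were higher at that threshold. With control replicate 3 left out the count was 4, against 4.10% of all features, and the medians were 0.69 for the mitosis genes and 0.34 for the replication genes. A list's score on an array is the median, over its genes, of the signal relative to each gene's 6-array mean, in log2 units. The mitosis score was 0.59, 0.80 and 0.67 in anti-PD-1 tumours and 0.53, -1.96 and -0.76 in control replicates 2, 3 and 4. The replication score was 0.45, 0.32 and 0.32 in anti-PD-1 tumours and 0.32, -1.05 and -0.38 in control replicates 2, 3 and 4. The difference between the lists was not tested.

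Across the control tumours, the squamous score varied in the same direction as the replication score, and the endothelial and fibroblast scores in the opposite one. The mean was higher under anti-PD-1 for 11 of 12 squamous markers. The median log2 difference of the 12 was 3.24, or 1.89 without control replicate 3. Cdh1 was the exception, lower without overlap at -0.86 ± 0.28 (SE), or -1.07 without control replicate 3. The squamous score was 1.19, 2.41 and 0.77 in anti-PD-1 tumours and 0.45, -4.03 and -1.04 in control replicates 2, 3 and 4. Krt6a, the brightest squamous marker, read 18.62, 19.51 and 18.43 in anti-PD-1 tumours and 17.32, 9.04 and 16.21 in control tumours. The deposited table calls all 12 expressed in both groups, as the label of a squamous tumour implies, and control replicate 3 had the lowest score. Control replicates 3, 4 and 2 stood in the same order, low to high, on the squamous and the replication score, while the anti-PD-1 tumour with the highest squamous score, replicate 2, did not have the highest replication score.

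Markers of host tissue had lower means under anti-PD-1. All 7 endothelial markers were lower, with scores of -0.49, -0.46 and -1.09 in anti-PD-1 tumours and -0.01, 1.72 and 0.53 in control replicates 2, 3 and 4, and all 8 fibroblast markers, with scores of -0.26, -0.29 and -1.28 against -0.04, 1.24 and 0.86. All 8 adipocyte markers were lower, with scores of -1.49, -0.80 and -2.76 against 0.96, 5.28 and -1.86, and all 6 mammary markers, with scores of -2.87, -2.49 and -1.98 against 3.77, 5.88 and -2.69. Control replicate 4 lay within the anti-PD-1 range on both of these last scores. All endothelial, fibroblast and adipocyte markers were called expressed in both groups. Their part, and that of the squamous share, in the differences of the replication genes was not tested.

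Immune, blood and muscle markers gave scores that overlapped between the groups. T cell scores were 0.33, -0.11 and -0.60 in anti-PD-1 tumours and 0.14, -0.79 and 1.00 in control replicates 2, 3 and 4, and 3 of 9 markers were higher. Macrophage scores were 0.35, -0.50 and -0.15 against 0.25, -0.57 and 0.74, with 2 of 9 higher. Neutrophil scores ran from -0.10 to 0.42 against -0.88 to 0.06 (6 of 7 markers higher), B and plasma cell scores from -0.31 to 0.20 against -0.09 to 0.42 (3 of 7), erythroid scores from -1.73 to 0.45 against -0.37 to 2.43 (0 of 5) and skeletal muscle scores from -3.45 to 1.36 against -0.75 to 2.07 (1 of 8). The B cell factor Pax5 was called not expressed in both groups. Single markers could be separated although the scores overlapped. Without overlap, 3 of 7 neutrophil markers were higher, against 8.87% of all features. Lower without overlap were 1 macrophage marker and Jchain of the B and plasma cell list, at -5.03 ± 1.53 (SE), against 7.74% of all features. Retnlg, the brightest neutrophil marker, was lower by contrast, at -2.14 ± 0.85, with overlap.

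**Figure D5:**
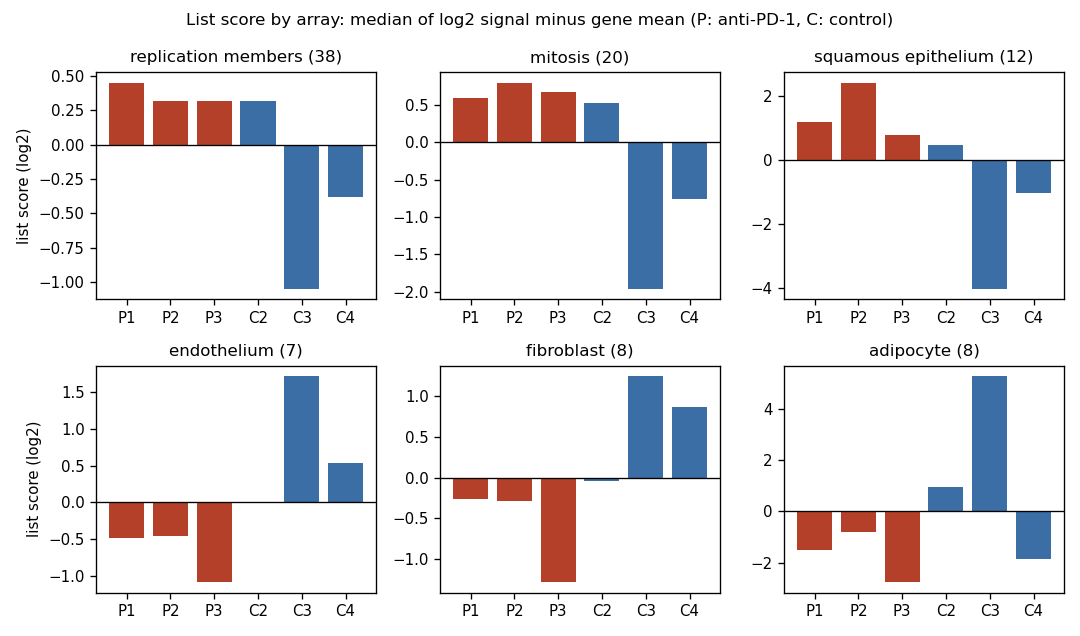
Score of each list by array, as the median, over its genes, of the signal relative to each gene's 6-array mean (log2), with anti-PD-1 tumours (P1 to P3) left of control tumours (C2 to C4) and a separate axis per panel. Replication, mitosis and squamous scores are lowest in control replicate 3, where endothelial, fibroblast and adipocyte scores are highest.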

How the data were processed

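Total RNA of 6 tumours, 250 ng each, was labelled with biotin and read on Clariom S Mouse arrays, per the labels. The deposited log2 values are SST-RMA gene-level signals of 22206 transcript clusters made by the authors, with mm10 annotation, per the file headers. As software, Transcriptome Analysis Console stands in the submitters' processing notes. The authors' deposited table also holds log2 averages, a standard deviation per group (a score), a signed fold change (a score), expressed calls, and p-value and FDR columns, per the file headers. No source used here names the test behind them. The other deposited table held the same log2 values, and 0 values differed. Such normalization aligns the overall distribution between arrays, so a difference is measured against the majority of genes.

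Symbols were split at semicolons and the cluster with the highest mean kept, which left 21824 features. Differences, anti-PD-1 minus control, came from linear models in limma 3.58.1 (lmFit, then eBayes; R 4.3.3). Its two-sided p-values were adjusted by Benjamini and Hochberg's method across all features. The fit was tested on simulated data. With 3 arrays per group the smallest two-sided p of an exact permutation test is 0.1, so none was run. Values are means ± SD between arrays or, where marked, SE of the fit. Full values are given for the 12 members with the smallest p and for members lower in anti-PD-1. Rrm2, Tk1, Pold1, Ccnd2, Cdk6, Cdkn1a, Cdkn2a, Krt5, Itga6, Cdh1, Pax5 and single values of other members were chosen after their values were seen. Up to 3 genes per pathway list and the brightest gene of a marker list could be named. Members and lists were chosen with earlier results of these data known.

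The alternatives were each array left out in turn, the replicate number as a block, quantile normalization, median centring and other rules for clusters. A trended robust eBayes, array weights and the values of the other deposited table were also used.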

Additional observations from a re-analysis of the deposited data

How the results depend on the processing

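All 15 alternatives kept the count of members past the adjusted threshold at 0, the count of members higher between 36 and 37 and the median log2 difference between 0.34 (without control replicate 3) and 1.04 (without control replicate 2). The smallest adjusted p of any member ran from 0.145 to 0.917. Of 569 values of single members under the alternatives, 568 kept their direction, and Tk1 reversed to -0.25 without control replicate 3 (-0.25 to 1.07 with any 1 array left out). Several alternatives repeat a member's difference by design, so this count overstates the stability. They are the other rules for clusters (each member has a single cluster, called expressed), the trended robust eBayes and the other deposited table. With 1 array left out, the count of members at an uncorrected p under 0.05 (9 over all arrays) ran from 3 to 29. The share of all features higher at that threshold (5.20%) then ran from 2.74% to 8.30%. Members without overlap (10) ran from 10 to 34, and the share of all features higher without overlap (8.87%) from 12.5% to 18.7%. Without control replicate 4 there were 10 such members (14.5% of all features). Without replicate 2 of anti-PD-1 there were 16 (16.3%), and 6 members at an uncorrected p under 0.05 (4.49%). Other replication genes at an uncorrected p under 0.05 in either direction (12) ran from 5 to 29. Fewer arrays make separation of the groups easier. The titles give the numbers 2 and 3 to tumours of both groups. With that replicate block the uncorrected counts were 1 member, which was higher, and 1 other replication gene, counted in either direction. At that threshold 1.90% of all features were higher. In that fit only numbers 2 and 3 hold both groups, so it has less precision than the main fit. Deviations of same-numbered tumours from their group means correlated at -0.20 and -0.19. These correlations, from numbers 2 and 3 only, cannot decide whether the numbers pair the tumours. Array weights gave control replicate 3 the lowest weight, 0.341, and 12 members at an uncorrected p under 0.05, against 6.13% of all features higher. Quantile normalization and median centring moved the median difference of all features from 0.02 to between 0.00 and 0.03. Background correction could not be varied from signal tables.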
